A study of Mus musculus with 30 samples.

Results

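The clustered histone genes of the mouse were followed here as 67 protein-coding genes of the 21938 in the GENCODE M21 annotation (GRCm38), taken by a symbol that begins with Hist1h, Hist2h, Hist3h or Hist4h. They code for the linker histone H1 (6 genes) and for the core histones H2A (18), H2B (18), H3 (12) and H4 (13). The start site of a gene was the 5′ end of its annotated gene model, and a start site counted as having a peak when a listed peak overlapped the window of 1000 bp to either side of it. The other 21871 protein-coding start sites, measured in the same way, are the comparison.

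Histones wrap DNA into nucleosomes, and a dividing cell must make a full new set each time it copies its genome. The clustered genes supply most of that set: they are read in S phase, have almost no introns, and give RNAs that end in a stem-loop and not in a poly(A) tail. Many H2A and H2B genes lie head to head and are transcribed away from a shared short promoter region. Mouse embryonic stem cells spend much of their cycle in S phase, so these genes are in frequent use there.

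The peak lists come from chromatin immunoprecipitation and sequencing (ChIP-seq) in mouse E14 embryonic stem cells of the genotype CTCF AID, in which the architectural DNA-binding protein CTCF carries an auxin-inducible degron and is destroyed when the auxin IAA is added. Cells were kept in serum-free medium with leukemia inhibitory factor, PD0325901 and CHIR99021, and were taken without IAA (0 h) or after 12 h of IAA. CTCF and SMC1A, a subunit of the cohesin ring, were each mapped in 1 library per time. CHD4 (the motor of the NuRD complex), CHD8 (a CHD-family remodeler), SMARCA4 (a motor of the BAF complexes, also called BRG1) and SMARCA5 (the ISWI motor SNF2H) are chromatin remodelers, and each was mapped as a biotin-tagged protein in its own line (CTCF AID and biotin-CHD4, and so on) in 2 libraries per time. All groups carry the degron, so no group has untagged CTCF, and none of the labels says whether the 2 libraries of a group came from separate cultures, so their spread may be technical. A peak list shows positions and not RNA, and the labelled cell type could therefore not be read from expression. Of 10 embryonic stem cell marker genes, 7 had a peak in all 16 remodeler libraries and none lacked a peak in all of them. Of the other 21871 start sites, 30.9% had a peak in all 16 and 29.0% in none. Among the markers, Fgf4 had a peak in 2 libraries and Esrrb in 5.

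The remodeler lists held between 40880 and 187294 peaks, the CTCF lists 29934 (0 h) and 2248 (12 h), and the SMC1A lists 16724 and 10. The lists differ in length and in peak width. The 2nd CHD4 library of each time had the longest lists of its time and the narrowest peaks, with median widths of 119 and 94 bp against 433 and 475 bp in the 1st. To compare lists of different lengths, each start site was ranked in each library by the −log10 p of its strongest peak within the window. The percentile is its place among all 21938 start sites, with start sites without a peak tied at the bottom, at percentiles between 18.2 and 28.0 in the 16 remodeler libraries.

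The genes fall into 4 clusters. Hist1 on chromosome 13 holds 54 genes in stretches that lie more than 500 kb apart, the first with 23 start sites between positions 21716143 and 22043214 and the second with 31 between 23531050 and 23934462. Hist2 on chromosome 3 holds 10 (96219865 to 96269752), Hist3 on chromosome 11 holds 2, and Hist4 on chromosome 6 holds 1. The genes are packed so closely that 51 of the 67 share a window with a neighbour, and merging the overlapping windows leaves 38. Neighbours are therefore not independent points: a peak between them counts for both. There are 12 head-to-head pairs, all of an H2A and an H2B gene, with 175 to 305 bp between the start sites (median 258.5 bp).

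The peaks described below may lie anywhere in the window of 1000 bp to either side, and not only between the start sites of such pairs. Some of the stretches of DNA between these start sites are printed here. All are from GRCm38 and overlap no annotated exon. Capitals mark the CCAAT box, the TATA word TATAAA, the octamer ATTTGCAT, the H4 promoter word GGTCCG, the E2F-type core TTTCGCG and the H1 box AAACACA, each on either strand. No word of these holds another. Hist1h2bl and Hist1h2ai (chr13:21716144-21716421, plus strand) are the H2B and H2A genes with the highest ranks. Hist1h2ak and Hist1h2bn (chr13:21753828-21754122, plus strand) are the pair with the smallest p in the test of IAA described below. The pairs of Hist1h2bq and Hist1h2ao (chr13:21810198-21810464) and of Hist1h2ap and Hist1h2br (chr13:21833508-21833742), also on the plus strand, had no remodeler peak in any library.
Hist1h2bl to Hist1h2ai: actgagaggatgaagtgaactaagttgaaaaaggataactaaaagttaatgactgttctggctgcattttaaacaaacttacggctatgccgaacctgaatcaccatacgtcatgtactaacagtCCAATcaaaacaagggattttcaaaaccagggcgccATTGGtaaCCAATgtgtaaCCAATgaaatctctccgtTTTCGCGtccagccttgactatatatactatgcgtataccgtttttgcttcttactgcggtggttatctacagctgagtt
Hist1h2ak to Hist1h2bn: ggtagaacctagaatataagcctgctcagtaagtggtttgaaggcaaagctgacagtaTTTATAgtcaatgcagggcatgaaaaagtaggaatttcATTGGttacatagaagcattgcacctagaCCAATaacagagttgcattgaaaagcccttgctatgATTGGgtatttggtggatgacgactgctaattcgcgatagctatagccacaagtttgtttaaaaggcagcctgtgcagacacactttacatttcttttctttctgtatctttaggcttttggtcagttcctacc
Hist1h2bq to Hist1h2ao: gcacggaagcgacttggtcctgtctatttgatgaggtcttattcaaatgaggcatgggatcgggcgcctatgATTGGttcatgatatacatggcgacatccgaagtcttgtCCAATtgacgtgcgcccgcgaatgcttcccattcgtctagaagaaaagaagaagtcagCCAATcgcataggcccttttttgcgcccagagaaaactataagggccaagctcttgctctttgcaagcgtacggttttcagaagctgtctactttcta
Hist1h2ap to Hist1h2br: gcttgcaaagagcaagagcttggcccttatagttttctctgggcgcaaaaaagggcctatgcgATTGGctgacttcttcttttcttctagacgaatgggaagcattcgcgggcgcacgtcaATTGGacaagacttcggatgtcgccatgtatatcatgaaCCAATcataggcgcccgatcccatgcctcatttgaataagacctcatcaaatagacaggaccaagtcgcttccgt
All 235 bases of the last stretch are found, as the reverse complement and with no mismatch, in the 267 bases of the one before it, so these pairs are inverted copies of each other. The H4 gene with the highest rank, Hist4h4, and the H1 gene with the highest rank, Hist1h1c, have the following 200 bases upstream of their start sites (chr6:136804416-136804615, minus strand, and chr13:23738608-23738807, plus strand), which show the words that mark those types.
Hist4h4 upstream: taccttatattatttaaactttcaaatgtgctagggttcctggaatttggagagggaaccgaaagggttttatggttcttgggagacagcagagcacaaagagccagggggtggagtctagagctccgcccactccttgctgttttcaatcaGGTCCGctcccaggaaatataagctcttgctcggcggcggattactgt
Hist1h1c upstream: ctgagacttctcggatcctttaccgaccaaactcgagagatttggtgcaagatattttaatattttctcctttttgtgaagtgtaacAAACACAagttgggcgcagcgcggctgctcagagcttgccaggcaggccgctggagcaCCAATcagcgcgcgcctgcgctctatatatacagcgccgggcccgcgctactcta

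All 67 genes were matched to a RefSeq gene. The RefSeq promoter table (GRCm38.p6) holds windows of 250 bases before and 50 after a start. After repeats of the same sequence were dropped, 61 genes had a window. For histone genes the window nearest the start site was used, and for other genes the first one listed. The CCAAT box was in 52 of the 61 (85.2%), against 37.8% of the promoters of 26681 other genes. The TATA word was in 35 (57.4%, against 14.02%). The words were divided by histone type. CCAAT was in all 18 H2A, all 15 H2B, all 10 H3 and all 6 H1 windows but in 3 of the 12 H4 windows. GGTCCG was in 11 of the 12 H4 windows (91.7%, against 8.44% of other promoters), and AAACACA in 5 of the 6 H1 windows (83.3%, against 7.14%). The octamer was found in H2A (7 of 18) and H2B (6 of 15) windows and TTTCGCG likewise (8 and 5), and neither in the H1, H3 or H4 windows. The other E2F-type spelling, TTTGGCG, was in 0 of the 61, against 1.60% of other promoters. A match of such short words is a description of the letters and no measure of binding.

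Most clustered histone genes had peaks of all 4 remodelers within 1 kb of the start site, at both times. A peak of every one of the 16 remodeler libraries was present at 47 of the 67 (70.1%), against 30.9% of the other start sites, and 5 (7.46%) had none, against 29.0%. For CHD4, 58 and 60 histone start sites had a peak in the 0 h libraries and 60 and 57 in the 12 h libraries (other start sites: 62.9%, 63.3%, 63.1% and 57.9%). For CHD8 the counts were 61 and 60 at 0 h and 61 and 61 at 12 h (other: 61.3%, 58.0%, 60.3% and 56.5%). For SMARCA4 they were 61 and 56, then 60 and 59 (other: 63.4%, 56.2%, 61.4% and 63.5%). For SMARCA5 they were 57 and 58, then 58 and 59 (other: 43.8%, 51.8%, 53.8% and 47.0%). The histone share was above that of the other start sites in each of the 16 libraries, and within each remodeler the ranges of the 0 h and 12 h counts overlapped or met.

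As shares, the histone start sites averaged 88.1% at 0 h and 87.3% at 12 h for CHD4, 90.3% and 91.0% for CHD8, 87.3% and 88.8% for SMARCA4, and 85.8% and 87.3% for SMARCA5. The excess over the other start sites, as a mean over the 4 libraries of a remodeler, was 25.9 percentage points for CHD4, 31.7 for CHD8, 26.9 for SMARCA4 and 37.5 for SMARCA5. With a window of 250 bp to either side the excess was 5.99 points for CHD4, 13.2 for SMARCA4 and 12.8 for SMARCA5. When the summit of the peak had to lie in the window, the excess for CHD8 was 17.8 points. These shares carry no p. For 1 remodeler, with 2 libraries a time, 0.333 would be the smallest two-sided p of an exact permutation test.

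**Figure D1:**
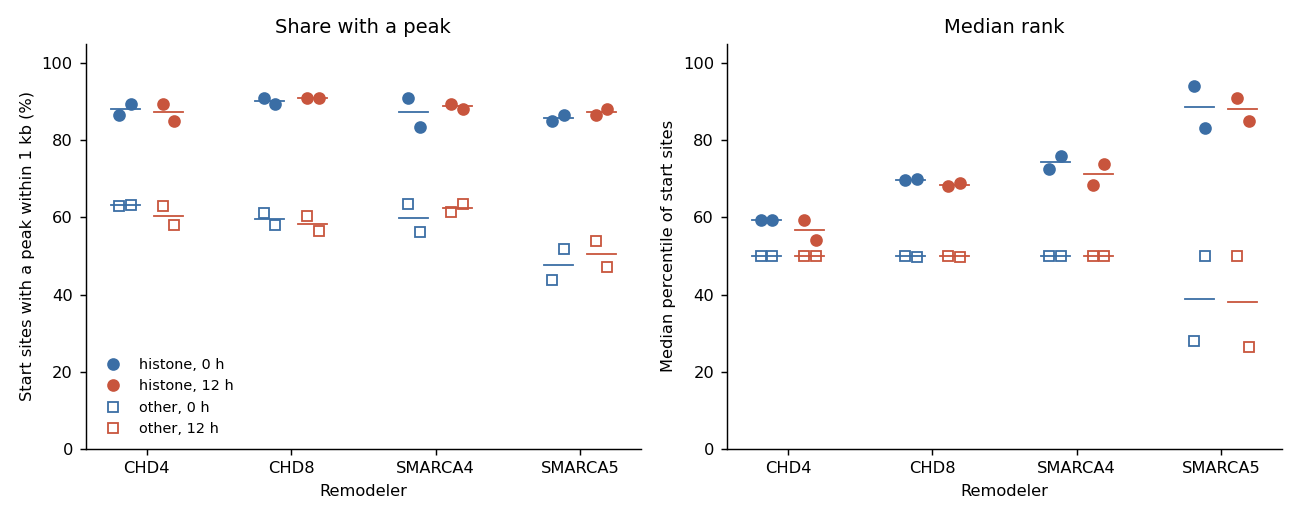
Left, percentage of start sites with a peak within 1 kb, and right, median percentile of the start sites, for each remodeler at 0 h (blue) and 12 h of IAA (red); points are libraries, lines the mean of 2, filled circles the 67 histone start sites and open squares the 21871 others. The histone points lie between 83.6% and 91.0% on the left, above the others in every library, and on the right they are highest for SMARCA5.

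How strong the peaks were differed by remodeler. The median percentile of the histone start sites was 59.3 and 59.4 in the 0 h CHD4 libraries and 59.4 and 54.2 in the 12 h ones. It was 69.7 and 69.9, then 68.1 and 69.0, for CHD8, and 72.7 and 75.9, then 68.5 and 73.9, for SMARCA4. The highest values were those of SMARCA5, at 94.1 and 83.2 at 0 h and 91.0 and 85.0 at 12 h. The SMARCA5 values lay above those of the other 3 remodelers in every library. Of the 67 start sites, 41 and 28 (0 h) and 34 and 30 (12 h) ranked at or above the 90th percentile for SMARCA5, where 9.85% to 9.89% of the other start sites did. For SMARCA4 these counts were 14 and 13, then 7 and 5, for CHD4 2, 3, 2 and 1, and for CHD8 0 in each library. CHD8 peaks were thus found at nearly all of these genes but never that high in the list.

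By type, H3 genes had a peak at 100% of the 12 start sites in every CHD4, CHD8 and SMARCA4 library, and at 95.8% ± 5.89 (SD, n = 2) of them at 0 h for SMARCA5. Their median SMARCA5 percentile was 95.2 ± 1.64 (SD, n = 2) at 0 h and 91.8 ± 0.903 at 12 h. H2B genes had the lowest SMARCA5 share at 0 h, 77.8% ± 0 (SD, n = 2). H4 genes had the highest median CHD8 percentile, 74.1 ± 2.91 at 0 h and 73.1 ± 0.392 at 12 h (SD, n = 2), against 66.2 to 70.01 for the other types at 0 h. By cluster, the first stretch of Hist1 had the lowest CHD8 share, 76.1% ± 3.07 at 0 h (SD, n = 2), and the second stretch had 96.8% ± 0. The first stretch holds 6 genes whose sequence occurs more than 1 time in the genome, which are described below. These are H2A, H2B and H4 genes and no H3 gene, which bears on the shares by type. In every CHD8 library, H2A and H2B genes each had a peak at 16 of 18 start sites, and the rest were such copied genes.

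**Figure D2:**
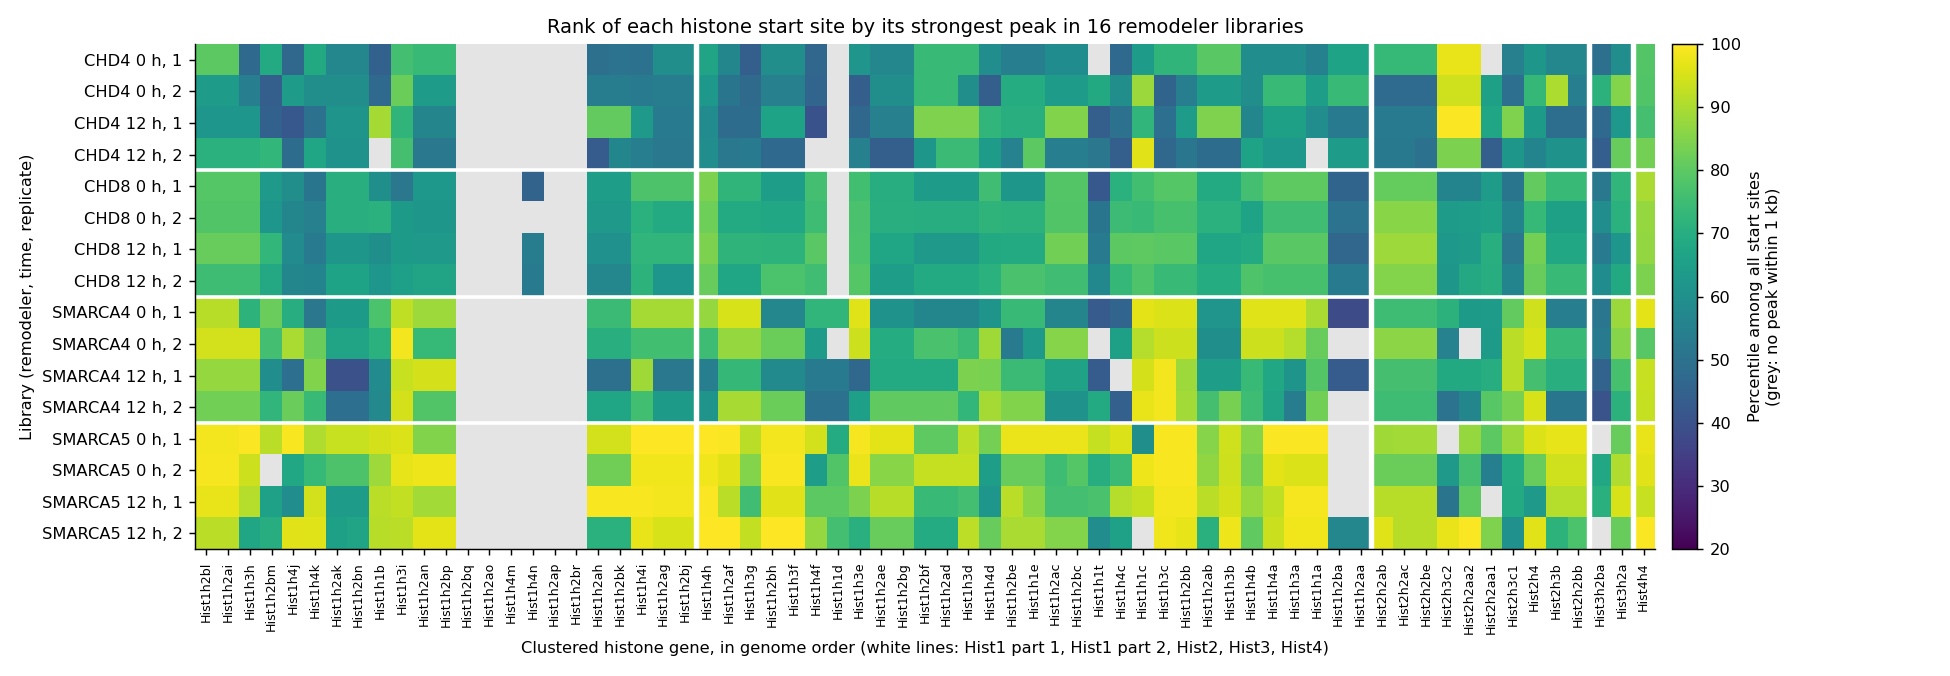
Percentile of each of the 67 histone start sites (columns, in genome order) in each of the 16 remodeler libraries (rows) by its strongest peak within 1 kb; yellow is the top of the list and grey marks no peak. SMARCA5 rows are the brightest, the block of 6 genes from Hist1h2bq to Hist1h2br is grey but for 3 CHD8 cells at Hist1h4n, and no column changes from filled to grey in both libraries of a remodeler between 0 h and 12 h.

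Among single genes, Hist4h4, the only gene of its cluster and a source of H4, ranked highest, with a mean percentile of 88.4 over the 16 libraries. Its SMARCA5 percentiles were 97.5 and 96.5 at 0 h and 93.2 and 99.6 at 12 h, and its CHD8 percentiles 89.7 and 87.2, then 87.2 and 84.1. The SMARCA5 values of the times overlapped, and both 12 h CHD8 values lay below both 0 h values, the nearest by less than the rounding. The pair of Hist1h2ai and Hist1h2bl, which lie under the same remodeler peaks, had a mean of 83.4, with SMARCA5 percentiles of 98.7 and 99.0 at 0 h and 97.5 and 91.8 at 12 h. Hist1h2bb (82.1) was the next H2B gene and Hist2h2ab (77.3) the next H2A gene. Hist1h3i and Hist1h3c, both for H3, had a mean of 81.7 each, and Hist1h4a, for H4, had 80.1.

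Linker histone genes spread widely. Hist1h1c had a mean percentile of 80.4 and a SMARCA5 spread wider than that of SMARCA4. Its SMARCA4 percentiles were 96.7 and 91.2 at 0 h and 94.98 and 97.2 at 12 h, while its SMARCA5 percentiles were 59.7 and 97.9 at 0 h, 93.1 in the 1st 12 h library, and at the bottom, with no peak, in the 2nd. Hist1h1a had 77.3. Hist1h1d had the lowest mean of the H1 genes, 41.2, with a peak in 7 of 16 libraries, but its annotated start site lies 1828 bp from its start codon. Hist1h2be, an H2B gene with a peak in all 16 libraries, is the other gene whose start codon lies outside the window, at 35168 bp. The testis gene Hist1h1t, the H1 variant of spermatocytes, had a peak in 14 of 16 libraries and a mean of 53.9.

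The other testis genes of the clusters, Hist1h2aa and Hist1h2ba, form a head-to-head pair at the far end of Hist1 and had a peak in 11 of 16 libraries each, with a mean of 44.2. All CHD4 and CHD8 libraries had a peak there. For SMARCA5 there was a peak in 1 of the 4 libraries, the 2nd at 12 h, at percentile 56.9. Their CHD4 percentiles were 66.3 and 74.4 at 0 h and 53.4 and 63.8 at 12 h, so both 12 h values lay below both 0 h values. At Hist3, Hist3h2a had a peak in all 16 libraries (mean 77.1) and Hist3h2ba in 14 (mean 51.2). The H3 genes with the lowest means, Hist2h3c1 (68.8) and Hist2h3c2 (69.1), still had a peak in 16 and 15 libraries. Hist2h3c2 was high for CHD4, at 97.4 and 94.1 at 0 h and 99.4 and 84.3 at 12 h.

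The genes without peaks all lay in copied sequence. Hist1h2bq, Hist1h2ao, Hist1h2ap, Hist1h2br and Hist1h4m had no peak in any remodeler library, and Hist1h4n had 3, all of CHD8 (percentiles 45.6 at 0 h and 53.9 and 52.7 at 12 h). In the windows of the first 4 of these, 0% of the 50-base words occurred a single time in the genome, and in those of Hist1h4m and Hist1h4n 7.02% and 8.04% did, with a median of 2 copies in all 6. A read from such a word has more than 1 place of origin, and how the authors treated such reads is not given in the sources used here. Windows of 4 Hist2 genes, Hist2h3c1, Hist2h3c2, Hist2h2aa1 and Hist2h2aa2, had 21.5% to 45.6% single-copy words and a peak in 14 to 16 libraries. All 57 genes with 50% or more had a peak. Among other start sites, 638 of 640 with less than 10% single-copy words had no remodeler peak. The part of the copies in the missing peaks was not tested. Over the 57 genes with 50% or more, the share with a peak was 93.0% to 100% in each remodeler library, against 46.3% to 67.1% of the 20670 other start sites of that kind.

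**Figure D3:**
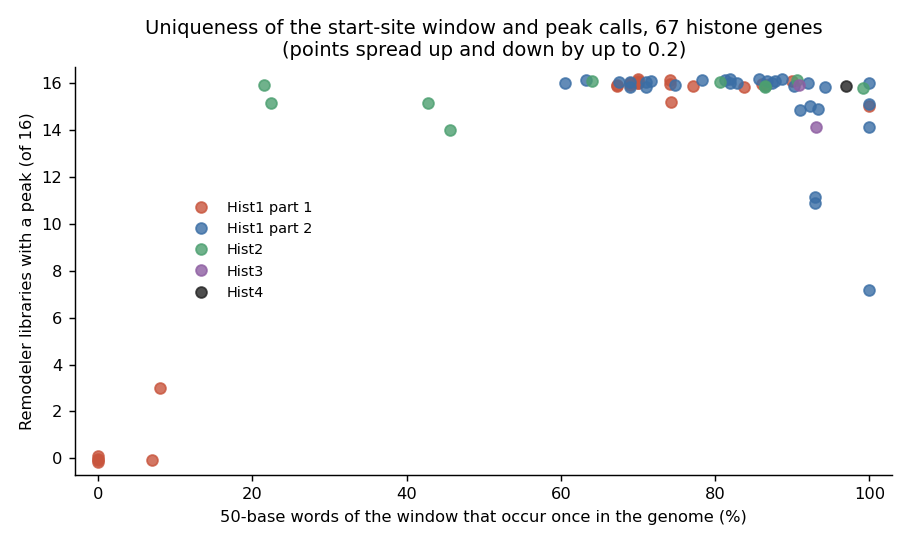
Number of remodeler libraries (of 16) with a peak at each of the 67 histone genes against the percentage of 50-base words in its window that occur a single time in the genome, coloured by cluster. The 6 genes under 10% have 0 or 3 libraries with a peak, and all genes above 50% have 7 or more.

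The next question was whether peaks at histone genes were lost or gained when CTCF was degraded. In the window of 1 kb, 0 of the 67 histone start sites lost the peak (both 0 h libraries and neither 12 h library) and 0 gained one, for each of the 4 remodelers. Over all 21938 start sites these shares were small as well: for loss 1.24% for CHD4, 0.82% for CHD8, 0.456% for SMARCA4 and 0.675% for SMARCA5, and for gain 0.397%, 0.255%, 1.09% and 1.58%. With shares this low over all start sites, a count of 0 does not set the histone genes apart. With the window of 250 bp, 7 histone genes lost SMARCA4 (0.786% of the others) and 4 lost CHD4 (1.37% of the others). A peak in all 4 libraries was kept at 55 of the 67 for CHD4, 60 for CHD8, 55 for SMARCA4 and 54 for SMARCA5, against 54.2%, 54.7%, 53.4% and 34.8% of the other start sites.

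Ranks were compared by a two-sided exact permutation test per start site, in which the mean change of percentile over the 4 remodelers was set against every exchange of 0 h and 12 h labels within the remodelers. Of 15580 start sites with at least 1 peak, 0 (0%) reached an adjusted p (Benjamini-Hochberg) of 0.05, and so did 0 of the 62 histone genes tested. By the same exact permutation test, 1308 start sites (8.40%) had an unadjusted p under 0.05, 6 of them histone genes. The smallest possible p is 0.00154, and 481 start sites would have to reach it for a call, where 62 did. The change at the histone genes had a median of −1.45 percentile points, against 0.12 over all start sites tested, with 42 histone genes lower and 20 higher (32.3%) at 12 h, where 50.9% of all start sites tested were higher. The 62 genes lie in 37 merged windows and are not independent.

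The 6 genes with an unadjusted exact permutation p under 0.05 were all lower at 12 h. By this exact permutation test they were the pairs of Hist1h2ak and Hist1h2bn (p = 0.0154, adjusted p = 0.478) and of Hist1h2ag and Hist1h2bj (p = 0.0201, adjusted p = 0.494), and Hist1h4h and Hist1h3e (both p = 0.0309, adjusted p = 0.527). The H3 gene Hist1h3e had the lowest mean change of all histone genes, −15.1 percentile points, with SMARCA4 percentiles of 96.1 and 93.9 at 0 h and 46.9 and 65.0 at 12 h and SMARCA5 percentiles of 98.9 and 97.5, then 84.2 and 70.9. The 12 h libraries lay below the 0 h ones for both proteins, with no overlap. Its CHD8 percentiles lay the other way, at 75.8 and 76.9, then 77.2 and 78.9, and its CHD4 percentiles overlapped, at 61.8 and 44.4, then 46.6 and 54.8. The fold enrichment of its strongest SMARCA4 peak, the authors' own value per peak, was 13.6 and 9.49 at 0 h and 3.46 and 4.78 at 12 h. The pair of Hist1h2ak and Hist1h2bn showed the same order for SMARCA4, at 63.7 and 66.7, then 39.8 and 49.2. None of these passed the adjustment over all start sites.

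SMARCA4 peaks lay over fewer histone start sites at 12 h. Counting peaks over the start site itself (a measure added after the data had been examined), 45 and 38 of the 67 histone start sites (67.2% and 56.7%) were under a SMARCA4 peak in the 0 h libraries and 24 and 20 (35.8% and 29.9%) in the 12 h libraries. The other start sites went from 48.9% and 39.0% to 39.1% and 38.3%. Both histone values at 12 h were below both at 0 h. The values of the other start sites all but separated as well. Their lower 0 h library had 8540 covered start sites and their higher 12 h library 8541, of 21871. The difference between histone and other start sites was not tested. At 100 bp upstream the histone values were 62.7% and 53.7% at 0 h and 22.4% in each 12 h library, against 45.8% and 35.9%, then 35.9% and 35.9%, for the other start sites. At 500 bp downstream the histone values of the times overlapped, at 70.1% and 64.2%, then 61.2% and 73.1%.

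A SMARCA4 peak was over the start site in both 0 h libraries and neither 12 h library at 13 of the 67 histone genes (19.4%), where the share over all start sites was 4.96%; none was gained, against 1.42% of all start sites. The 13 are Hist1h1a (H1), Hist1h2ab, Hist1h2ae, Hist1h2af, Hist1h2ak, Hist1h2an and Hist3h2a (H2A), Hist1h2bg, Hist1h2bp and Hist2h2bb (H2B), Hist1h3c (H3), and Hist1h4a and Hist1h4i (H4). They lie in 11 windows that do not overlap. All 13 still had a SMARCA4 peak within 1 kb in all 4 libraries. The count was 9 when the start codon took the place of the start site and 13 with lists cut to equal length. It was 16 to 19 when 1 of the 4 SMARCA4 libraries was left out. Leaving out a library loosens the rule, so that count could not fall below 13. The shares of other start sites under these settings are not given here.

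By type, SMARCA4 covered 13 and 10 of the 18 H2A start sites at 0 h and 5 and 2 at 12 h. For H2B the counts were 11 and 7, then 5 and 5 of 18, for H3 8 and 8, then 5 and 5 of 12, and for H4 8 and 9, then 6 and 4 of 13. For each core histone the higher 12 h count was below the lower 0 h count. For H1 the counts met, at 5 and 4, then 3 and 4 of 6. Windows with a SMARCA4 peak held 2 or more separate peaks in 24.6% and 53.6% of cases at 0 h and in 56.7% and 71.2% at 12 h. At other start sites that share was also higher at 12 h in both libraries, at 17.4% and 21.4%, then 29.5% and 32.6%. The median width of these peaks was 1607 and 1124 bp at 0 h and 869 and 823 bp at 12 h. Peaks at other start sites were narrower at 12 h only against the 1st library: 1144 and 821 bp, then 877 and 866 bp. The part of peak width and number in the lower cover of the start site was not tested.

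**Figure D4:**
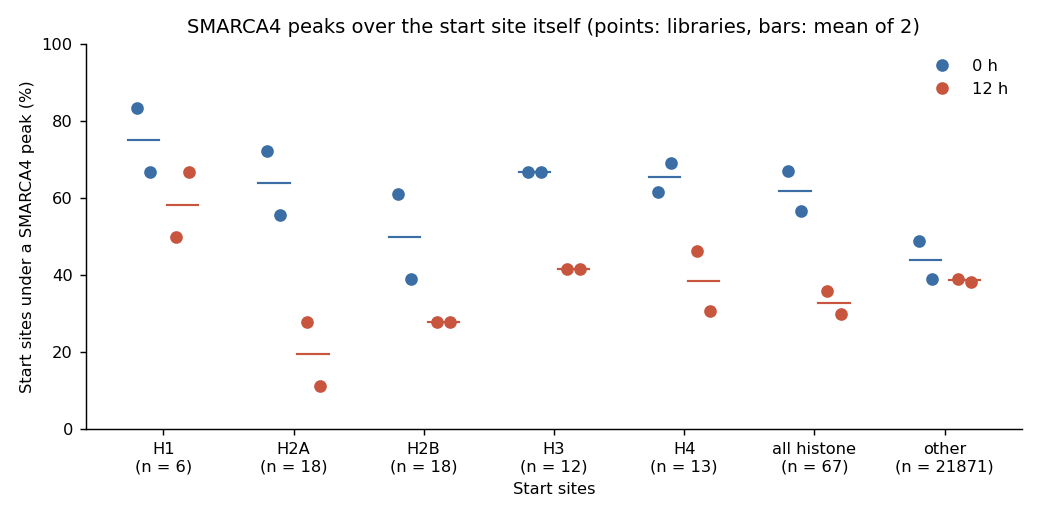
Percentage of start sites that lie under a SMARCA4 peak, by histone type, for all 67 histone genes and for the 21871 others, at 0 h (blue) and 12 h of IAA (red); points are libraries and bars the mean of 2. The share of all 67 is 67.2% and 56.7% at 0 h and 35.8% and 29.9% at 12 h, H2A has the lowest mean at 12 h, and the H1 points meet.

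Over the start site, the counts of loss for the other remodelers were lower, and so were their shares over all start sites. For CHD8, 0 histone start sites lost and 0 gained a peak over the start site (all start sites: 0.634% and 0.406%). For SMARCA5, 1 (Hist1h4b) lost and 0 gained one (all: 0.634% and 1.38%). For CHD4, 4 (Hist1h2bc, Hist1h4c, Hist1h4d and Hist3h2ba) lost and 0 gained one (all: 1.16% and 0.438%). The CHD4 loss was 5.97% of the 67, so a loss above the share over all start sites was not particular to SMARCA4. CHD4 was over 17 histone start sites in both 0 h libraries, and SMARCA4 over 34. The CHD4 count was 12 without the 2nd 0 h library and 12 without the 1st 12 h library, where the rule is looser in the same way. CHD4 covered 59.7% and 26.9% of histone start sites at 0 h and 50.7% and 8.96% at 12 h, so its 2 libraries of a time differed more than the times.

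The remodelers also differed in where around the start site they lay. CHD8 cover of histone genes was highest 150 bp upstream, at 82.1% and 83.6% in the 0 h libraries and 85.1% and 86.6% in the 12 h ones, where 46.7% to 51.5% of other start sites were covered. At other genes CHD8 cover was highest 100 bp downstream. SMARCA5 at the start site itself covered 11.9% and 26.9% of histone genes at 0 h and 29.9% and 14.9% at 12 h, against 8.94% to 21.7% of other start sites. At 700 bp upstream it covered 61.2% and 65.7% at 0 h and 74.6% and 61.2% at 12 h, where 12.2% to 16.4% of other start sites were covered. At 500 bp downstream it covered 55.2% to 61.2%. SMARCA5 was thus found on either side of histone start sites and at a lower share on them, in all 4 libraries. Other start sites showed a dip there too: their mean SMARCA5 cover 500 bp upstream, at the start site and 250 bp downstream was 19.0%, 11.9% and 25.5% at 0 h and 20.2%, 15.7% and 30.7% at 12 h. Neighbouring genes lie within these distances, so a peak upstream of one gene can be downstream of the next.

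**Figure D5:**
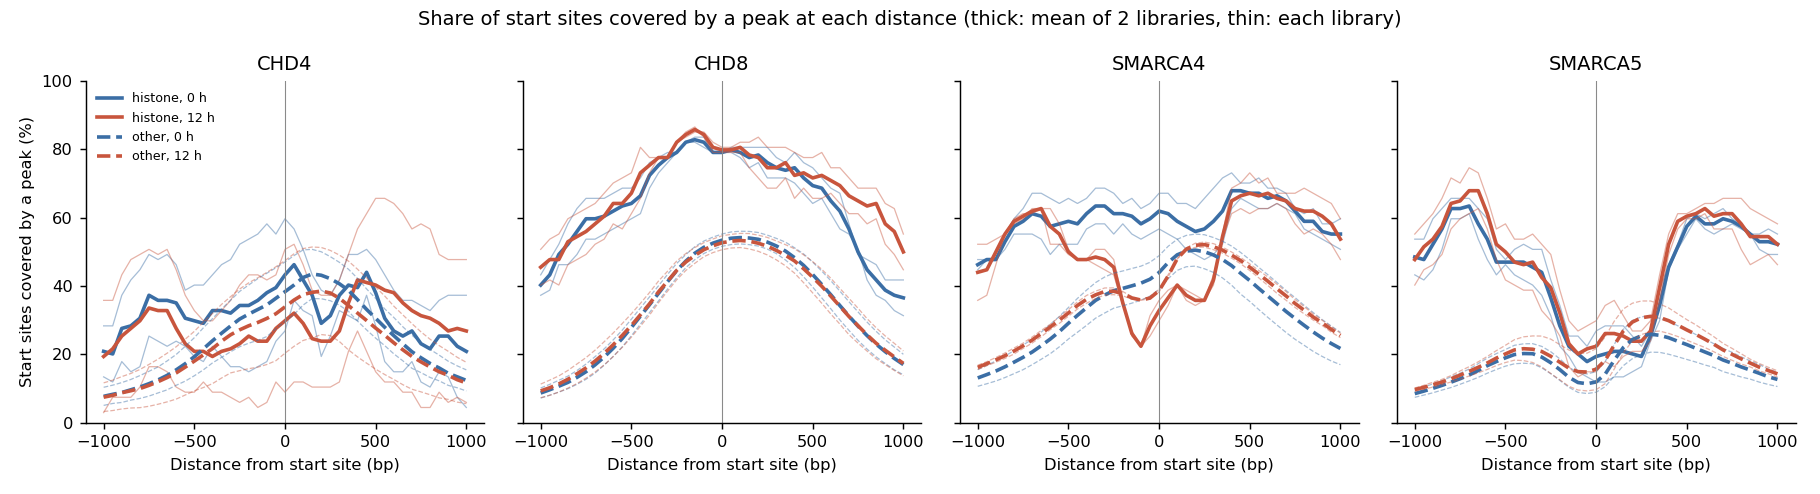
Percentage of start sites covered by a peak at each distance from 1000 bp upstream to 1000 bp downstream, per remodeler, for the 67 histone genes (solid) and the 21871 others (dashed), at 0 h (blue) and 12 h of IAA (red); thick lines are means of 2 libraries and thin lines single libraries. Mean SMARCA4 cover of histone genes at the start site is 61.9% at 0 h and 32.8% at 12 h, CHD8 peaks 150 bp upstream, SMARCA5 dips at the start site, and the CHD4 libraries differ from each other at both times.

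CTCF itself was at few clustered histone genes, at a 0 h share near that of the other start sites. At 0 h, 8 of the 67 start sites (11.9%, exact Clopper-Pearson 95% interval 5.30% to 22.2%) had a CTCF peak within 1 kb, against 13.7% of the others, and at 12 h 0 (0% to 5.36%) did, against 1.83%. Of all start sites with a CTCF peak at 0 h, 86.6% had none at 12 h. SMC1A was at 6 (8.96%, 3.36% to 18.5%) at 0 h, against 11.1% of the others, and at 0 at 12 h, against 0.00914%, and 99.9% of all start sites with an SMC1A peak lost it. With 1 library per time these comparisons have no replicate check, and the intervals cover counting error only. They treat the start sites as independent, although 51 of the 67 share a window, and so may be too narrow. The window of 250 bp gave 4 genes for CTCF and 3 for SMC1A.

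The genes with a CTCF peak at 0 h were Hist3h2a, Hist1h4j, Hist1h2bj, Hist1h4f, Hist1h4c, Hist2h4, and Hist1h2ab with Hist1h3b, which share 1 peak. The genes with an SMC1A peak were Hist1h2bl, Hist1h4j, Hist1h1c, Hist2h4, and Hist1h3c with Hist1h2bb, which share 1 peak. Hist1h4j and Hist2h4, both for H4, had both proteins, 6 genes had CTCF alone, 4 had SMC1A alone and 55 had neither. Counted from the top by −log10 p, the CTCF peak at Hist1h4c stood highest, at 40.9% of its list, with a fold enrichment of 12.5. The peak at Hist1h2ab and Hist1h3b stood lowest, at 97.4%, with 4.78. The highest fold enrichment was 13.6, at Hist1h4j. Relative to the start site (minus means upstream), the CTCF and SMC1A summits lay at −768 and −649 bp at Hist1h4j and at −175 and −123 bp at Hist2h4.

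The DNA at 3 of these CTCF summits lies outside annotated exons and holds the central letters of the CTCF motif. These are CC, then 3 free bases, AG, 2 free bases and GGC, searched on both strands and shown in capitals in the 81 bases centred on the summit (GRCm38, plus strand). They are Hist1h4j (chr13:21734256-21734336), Hist1h4c (chr13:23697549-23697629) and Hist2h4 (chr3:96263446-96263526).
Hist1h4j: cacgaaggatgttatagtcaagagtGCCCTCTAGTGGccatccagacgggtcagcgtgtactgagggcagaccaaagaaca
Hist1h4c: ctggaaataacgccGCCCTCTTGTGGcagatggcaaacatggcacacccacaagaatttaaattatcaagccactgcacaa
Hist2h4: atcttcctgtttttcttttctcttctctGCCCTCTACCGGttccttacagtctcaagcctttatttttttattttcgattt
Within 50 bp of the summit these letters were also found at Hist3h2a and at the peak shared by Hist1h2ab and Hist1h3b, inside exons, and not at Hist1h2bj or Hist1h4f. Over all 29934 CTCF peaks of 0 h they were in 54.6% of the 101-base summit windows, and in 1.68% and 1.67% of windows moved 100 kb upstream and downstream.

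Within the spans of the clusters, the first stretch of Hist1 held 5 CTCF peaks at 0 h and 3 at 12 h, and the second stretch 10 and 1. The median distance from a histone start site to the nearest CTCF summit of 0 h was 11027 bp, against 16381 bp for the other start sites. All 8 genes with a CTCF peak had a peak of each remodeler in both 0 h libraries. Of the 59 genes without a CTCF peak, 48 to 53 had a peak in each 0 h remodeler library. Those 59 include the 6 genes of copied sequence. At 12 h all 8 had SMARCA5 and CHD8 in both libraries, while Hist1h4f had no CHD4 peak in the 2nd library and Hist1h4c no SMARCA4 peak in the 1st. Of these 8, Hist3h2a and Hist1h2ab lost SMARCA4 and Hist1h4c lost CHD4 over the start site itself. Over all 67 histone genes such losses numbered 13 for SMARCA4 and 4 for CHD4. Over all start sites they were 4.96% and 1.16%. A link between these losses and the CTCF peak was not tested. Their median SMARCA5 percentile was 95.1 and 84.2 at 0 h and 91.4 and 91.2 at 12 h, and that of the 59 genes without a CTCF peak was 93.2 and 83.2, then 88.8 and 85.0. The SMARCA5 ranges of the 2 times overlapped for both sets, and so did the SMARCA4 ranges. At the 8 genes with a CTCF peak, both 12 h medians lay below both 0 h medians for CHD8 and CHD4. The CHD8 medians were 71.83 and 71.08, then 70.02 and 69.63. For CHD4 they were 59.5 and 64.2, then 57.9 and 48.1. At the 59 genes without a CTCF peak, the CHD8 and CHD4 ranges overlapped. The difference between the sets was not tested.

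Genes that work with the clustered histone genes were followed by list, with the same measures. The exact permutation test called 0 genes of each list. Of 17 genes for histone gene transcription and histone RNA 3′ end processing, 8 had a peak in all 16 remodeler libraries and 1 (Zfp473) in none, with a median of 71.5 for the mean percentile. The highest were Pou2f1 (94.0), which codes for the octamer-binding factor OCT1, and Ccne2 (86.0), for cyclin E2. The lowest above Zfp473 was Cstf2 (55.6), for a subunit of the RNA cleavage machinery. Of 16 histone chaperone and assembly genes, 12 had a peak in all libraries and 0 in none, with a median of 77.8. Hat1 (88.2) and Supt16 (86.6) were highest and Chaf1a (57.4) and Atrx (62.5) lowest.

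Of the 14 histone variant genes that lie outside the clusters, 10 had a peak in all 16 libraries and 2, Hils1 and H1fnt, in none, with a median of 73.1. H3f3a (91.4) and H2afx (87.1) were highest. The clustered genes had a median of 73.3, which lies within the range of these lists. By remodeler the order differed: SMARCA5 had the highest median at the clustered genes (87.2, and 59.6 for CHD4), while for the variant genes outside the clusters the medians of CHD4 and SMARCA5 were 77.0 and 75.7, and for the chaperone genes CHD8 was highest, at 86.4. These lists are set side by side as a description, without a test of their difference.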

How the data were processed

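Each of the 20 deposited files is a narrowPeak list of 1 library, so replicates were not pooled. Per the submitters' processing notes, Trim Galore, Bowtie2, MACS2, deepTools and the builds mm10 and hg38 were used; versions, the control, the threshold and the treatment of multi-mapping reads are not given in the sources used here. The deposited columns hold the authors' fold enrichment per peak (a ratio), its −log10 p and its −log10 q, whose lowest value was 1.30 to 2.95 in each list, and the summit position. The lists hold no read counts, so sequencing depth is unknown. The 10 input samples were not analysed here.

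Groups follow the ChIP target and IAA label of each sample. Start sites on 21 chromosomes came from GENCODE M21 (basic set), whose build GRCm38 is the same assembly as mm10. For each library, peaks within 1000 bp were counted and start sites ranked by −log10 p, with ties averaged. The site test (two-sided, exact, stratified by remodeler, Benjamini-Hochberg) was tested on simulated data. Uniqueness was the share of overlapping 50-base words found a single time on either strand of the 21 chromosomes. Python 3.11.15, numpy 2.4.6, pandas 2.3.3, scipy 1.17.1, numba 0.67.0 and matplotlib 3.10.9 were used.

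The genes and lists were chosen with earlier results of these data known. Genes are named by this rule: each with a CTCF or SMC1A peak, each lost or gained, the 2 highest and 2 lowest of each histone type, each without a remodeler peak, the testis genes, and those of Hist3 and Hist4; of the variant, transcription and chaperone lists, the 2 highest and lowest. The 6 genes with an unadjusted p under 0.05, and those that lost a peak over the start site were named after their values were seen. Alternatives were other windows, stricter or equal lists, other start sites, merged windows, and each library left out.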

Additional observations from a re-analysis of the deposited data

How the results depend on the processing

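As a mean over 4 libraries, the excess of histone over other start sites with a remodeler peak stayed above 0 under the window, list, start and left-out library alternatives below. Not every library shows it: over the start site itself the histone share was below that of the others for SMARCA4 in both 12 h libraries and for CHD4 in the 2nd library of each time. In percentage points it was 5.99 ± 9.87 (CHD4, SD over 4 libraries), 13.2 (SMARCA4) and 12.8 (SMARCA5) with a 250 bp window. With the summit in the window it was 23.9 (CHD4), 17.8 (CHD8) and 20.7 (SMARCA4). With −log10 q of at least 5 it was 17.6, 35.2, 31.1 and 46.7 for CHD4, CHD8, SMARCA4 and SMARCA5. With every transcript start it was 23.8 (CHD4), 29.6 (CHD8) and 24.9 (SMARCA4). With merged windows it was 32.7, 39.97, 32.8 and 42.8 for the 4 remodelers in the same order. For alternatives chosen after seeing the data it was 38.3, 44.2, 37.6 and 46.9 around the start codon and 31.2, 36.0, 32.4 and 43.7 in windows with at least 50% single-copy words. The counts of lost or gained histone genes, 0 in the report, were 4 lost and 1 gained (CHD4), 7 lost (SMARCA4) and 1 lost and 1 gained (SMARCA5) at 250 bp. They were 1 lost (CHD4), 2 gained (SMARCA4) and 2 gained (SMARCA5) with the summit in the window, 1 lost (CHD4) and 2 lost (SMARCA5) with −log10 q of at least 5, and 4 lost (CHD4), 13 lost (SMARCA4) and 1 lost (SMARCA5) over the start site. With 1 library left out they ranged over 0 to 3 lost and 0 to 2 gained (CHD4), 0 to 1 gained (CHD8), 0 to 1 lost and 0 to 3 gained (SMARCA4), and 0 to 1 lost and 0 to 2 gained (SMARCA5). Leaving out a library loosens the rule and cannot lower these counts. Shares of other or all start sites stand above for the CHD4 and SMARCA4 losses at 250 bp and for the start site itself. For the other settings they are not given here. Those counts alone therefore do not set the histone genes apart from other start sites. At 250 bp, 4 genes had CTCF and 3 SMC1A at 0 h, and 3 had SMC1A with −log10 q of at least 5. The cause of these moves was not tested.

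The exact permutation test called 0 start sites under every alternative, with 3 to 9 histone genes at an unadjusted p under 0.05 when 1 library was left out and 10 when ranked by fold enrichment (1516 of all start sites, smallest adjusted p 0.276). With the replicate number as a block it called 0, with 5 histone genes and 1122 start sites at an unadjusted p under 0.05 and a smallest adjusted p of 0.522. Deviations of same-numbered libraries correlated at 0.06 (CHD4), 0.18 (CHD8), −0.13 (SMARCA4) and −0.02 (SMARCA5), so these values gave little sign of pairing. List length did follow the number for CHD4 and CHD8, and not for SMARCA4 or SMARCA5. The 1st CHD4 libraries held 111947 and 105001 peaks at 0 h and 12 h, and the 2nd 187294 and 159918. For CHD8 the lengths were 51943 and 51840, then 40880 and 42297. Crossing the SMARCA4 numbers, chosen after seeing the data, also gave 0 calls. Peak lists hold no read counts, so a missing peak cannot be told from low depth.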
